A study of Homo sapiens with 6 samples.

Results

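The MYC, MAX and MXD network was examined as 9 genes (MYC, MYCL, MAX, MXD1, MXD3, MXD4, MXI1, MNT and MLX), picked by symbol among the 58174 genes listed for A549 cells. All 9 were listed, and 8 had a mean of at least 0.5 FPKM (fragments scaled by gene length and by library size), the minimum set for testing. MYCL, at 7 to 30 reads per library, is described without a test. A549 is an established human lung adenocarcinoma cell line. Parental cells (Ctrl, 3 libraries) were compared with cells whose MIR21 gene had been cut out by Cas9 with paired guide RNAs (MIR21-KO, 3 libraries). Both were grown in DMEM with 10% serum and harvested 48 h after seeding. MIR21-KO cells were expanded from sorted single cells, and how many clones the 3 libraries represent is not stated, so traits of a clone and effects of the deletion cannot be told apart. The study describes the replicates of a group as independent samples, and p-values measure the spread between them.

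MYC is a basic helix-loop-helix leucine zipper factor that binds DNA as a heterodimer with MAX, preferentially at the E-box CACGTG, and drives growth genes such as those of ribosome production. MAX is the shared partner. MXD1, MXI1 (also called MXD2), MXD3, MXD4 and MNT compete for MAX, and their heterodimers recruit SIN3 and histone deacetylases to repress genes with the same motif. MLX is a MAX-like partner used by MXD1, MXD4 and MNT and by the glucose-responsive factors MLXIP (MondoA) and MLXIPL (ChREBP). MXD genes are known for rising as cells leave the cell cycle, MYC for high levels in dividing tumor cells.

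The deposited values gave 10631667 to 14345209 reads per library, and a single read per kb of gene equalled 0.0731 to 0.0930 FPKM. MIR21 itself was listed at 0 in each library, Ctrl included, and checks nothing in polyA-selected RNA. The overlapping gene VMP1 had 75.1 ± 3.83 FPKM (SD, n = 3) in Ctrl and 142.5 ± 7.18 in MIR21-KO. The keratins KRT7, KRT8, KRT18 and KRT19 averaged 88.3 to 673 FPKM in Ctrl and 109 to 551 FPKM in MIR21-KO. KRT18 was at 673 ± 25.3 in Ctrl and 422 ± 82.2 in MIR21-KO (FDR 0.0153, not called), and the other keratins overlapped between groups. Of the other epithelial markers, CDH1 fell from 8.18 ± 0.584 to 2.86 ± 0.148 FPKM (FDR 0.000175), and EPCAM averaged 1.19 in Ctrl and 0.695 in MIR21-KO. Blood and endothelial markers did not exceed 3 reads in a library. Among fibroblast markers, DCN did not either, and COL1A1 and LUM averaged 3.41 and 2.11 FPKM in Ctrl against 3.91 and 1.88 in MIR21-KO. COL3A1, too low for the test, had 5 to 14 reads in Ctrl and 45 to 56 in MIR21-KO. Whether the shifts of KRT18, CDH1 and COL3A1 bear on the network genes was not tested. Within the MIR21-KO group, libraries differed along base composition: Spearman correlations of their deviations with GC content, across 15955 genes, were 0.386, 0.21 and -0.446 for replicates 1 to 3. This is a description over genes, which are not independent.

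Sequences from the mature miRNAs and from 3' UTRs are shown first, as they define which network transcripts carry a direct match to the deleted miRNA. The mature sequences (RefSeq, seed bases 2 to 8 in capitals) are those of miR-21-5p, whose gene was deleted, and of let-7a-5p, shown because let-7 miRNAs are known regulators of growth genes.
hsa-miR-21-5p: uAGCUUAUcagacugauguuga
hsa-let-7a-5p: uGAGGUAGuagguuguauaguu

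In the longest annotated 3' UTR of each gene (GENCODE 29, GRCh38), 3 of the 9 genes held a miR-21-5p match of 7 or 8 bases, namely MXD3, MXD1 and MYCL. The MXD3 match is an 8mer, at chr5:177305951-177305978 on the minus strand. That of MXD1 is a 7mer with the terminal A, at chr2:69939444-69939471 on the plus strand. That of MYCL is a 7mer covering the whole seed, at chr1:39895670-39895697 on the minus strand. Capitals mark the matching bases, written as DNA of the transcript strand.
MXD3: agctctggagacaccaaATAAGCTAgag
MXD1: ctttgtagcatttttattTAAGCTAaaa
MYCL: ctgaatagcttgtgttttATAAGCTgct

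Among 11646 tested genes with a 3' UTR, 334 (2.87%) held a miR-21-5p 8mer and 1680 (14.4%) an 8mer or 7mer. MXI1 held only a 6mer, and no match was found in MNT, MXD4, MLX, MAX and MYC in these windows. Searching every annotated 3' UTR changed one entry, a 6mer in MAX. Let-7 matches were found in 3 genes as well, an 8mer in MXD1 (chr2:69939069-69939096, plus strand) and 7mers in MNT (chr17:2384888-2384915, minus strand) and MYCL (chr1:39896830-39896857, minus strand). Of the tested genes, 4.35% held a let-7 8mer and 18.0% an 8mer or 7mer.
MXD1: tggaacatttttttttcCTACCTCAgag
MNT: cccccgggcctgcacagaTACCTCAtca
MYCL: ttgatcaacattgaccatTACCTCActg

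The E-box CACGTG, which reads the same on both strands and is one form of CANNTG, was searched in RefSeq promoter windows (GRCh38.p14) from 250 bases before to 50 after the start site. Windows were listed for 8 of the 9 genes, not for MYC. MXD4, MNT and MLX held a match, at -238, -193 and -50 bases from the start site, and MYCL, MAX, MXD1, MXD3 and MXI1 held none. By comparison, 9.48% of 13614 windows of tested genes and 7.26% of all 35116 windows held it, while CANNTG was found in 60.7% and 68.7%. The 250 bases before the start are shown for these 3 genes, the E-box in capitals, because MXD4 and MNT are 2 of the 3 network genes that rose. They lie at chr4:2262110-2262359 (minus strand), chr17:2401061-2401310 (minus strand) and chr17:42566850-42567099 (plus strand).
MXD4: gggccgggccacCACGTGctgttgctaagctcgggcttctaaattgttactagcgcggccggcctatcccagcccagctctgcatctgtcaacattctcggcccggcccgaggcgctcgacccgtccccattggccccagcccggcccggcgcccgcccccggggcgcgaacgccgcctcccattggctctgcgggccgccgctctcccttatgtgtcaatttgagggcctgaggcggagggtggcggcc
MNT: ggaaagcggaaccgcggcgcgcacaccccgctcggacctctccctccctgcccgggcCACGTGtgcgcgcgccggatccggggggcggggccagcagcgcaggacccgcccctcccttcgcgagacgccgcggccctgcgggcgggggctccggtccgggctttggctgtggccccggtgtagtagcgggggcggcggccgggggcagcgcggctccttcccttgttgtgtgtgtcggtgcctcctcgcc
MLX: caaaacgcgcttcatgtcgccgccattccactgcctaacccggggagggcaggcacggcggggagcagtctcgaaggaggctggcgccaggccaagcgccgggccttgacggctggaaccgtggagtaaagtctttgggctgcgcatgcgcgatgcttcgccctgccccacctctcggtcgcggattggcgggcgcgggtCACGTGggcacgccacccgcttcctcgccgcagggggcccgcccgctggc

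In MIR21-KO cells 3 repressor genes of the network, MXD4, MXD1 and MNT, were higher than in Ctrl cells, by 1.96-, 1.78- and 1.57-fold on the log2(FPKM + 0.1) scale. MYC and MAX, which form the activating pair, did not pass the test, with differences of 0.02 ± 0.075 and 0.19 ± 0.086 (log2, SE). In total 3 of the 8 tested network genes (37.5%) passed an FDR under 0.01 as higher and 0 as lower. None of the 8 was lower at an unadjusted p under 0.05 in the main limma fit, or called lower by voom on recovered reads. MLX had an unadjusted limma p of 0.0225 with scaling by total reads and 0.0188 with GC and length trends removed. Of all 16006 genes tested, 16.0% passed, 7.66% as higher and 8.38% as lower. With protein-coding genes only, 4 of the 8 network genes and 1530 of 11719 genes were called higher. At an unadjusted p under 0.05, 20.7% of all genes were higher and 22.5% lower, and voom called 10.5% higher and 11.4% lower. The median difference was 0.38 among the network genes and -0.02 among all genes. For 4 of the 8 (50%) the libraries of one group all lay above those of the other, against 48.1% of all genes, so that share is near the background. FDRs are Benjamini-Hochberg adjusted p-values of limma's two-sided test.

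**Figure D1:**
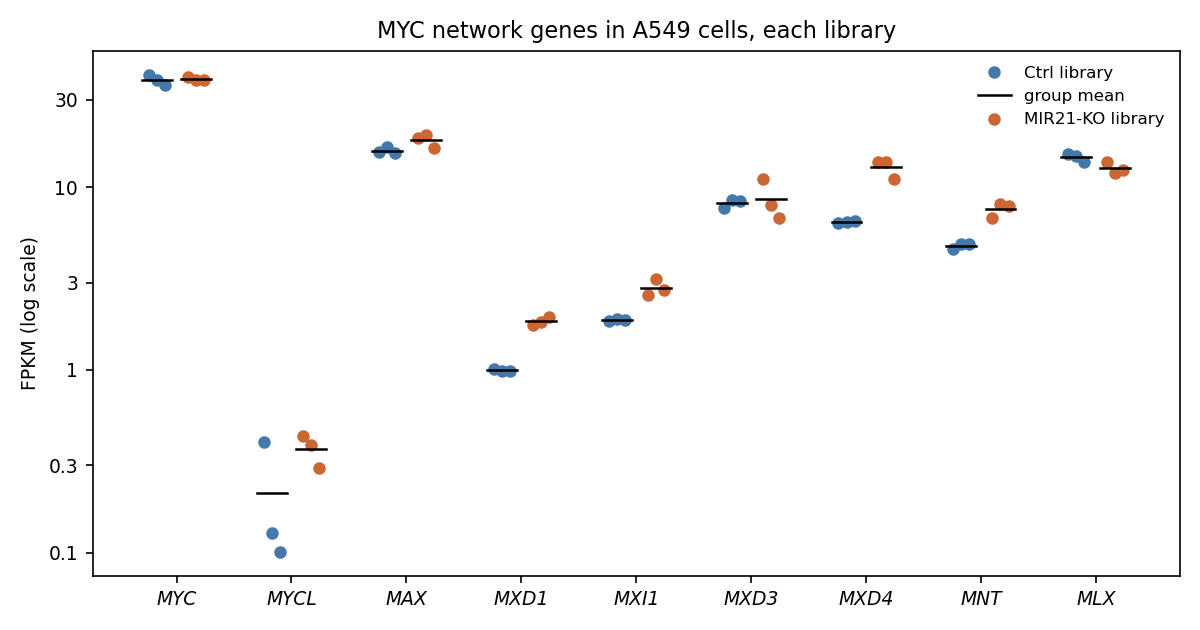
Level of each network gene in each library (FPKM, log axis), with Ctrl libraries in blue, MIR21-KO libraries in orange and group means as black bars (n = 3 per group). MXD1, MXI1, MXD4 and MNT are separated between groups, while MYC lies between 36.2 and 41.3 FPKM in all 6 libraries.

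MYC (ENSG00000136997, chromosome 8) was the highest of the 9 in both groups. It was at 41.3, 38.6 and 36.2 FPKM in Ctrl and 40.2, 38.6 and 38.7 FPKM in MIR21-KO, with 1245 to 1644 reads per library. The MIR21-KO values fell inside the Ctrl range, and the means were 38.7 ± 2.55 and 39.2 ± 0.899 (SD, n = 3, FDR 0.862). Its sign depended on the setting. The difference was -0.02 when libraries were scaled by total reads and -0.03 without Ctrl replicate 3. With each library's trends on GC content and length removed it was -0.04.

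MYCL (ENSG00000116990), a paralog best known for amplification in small cell lung cancer, was the lowest. It had 0.403, 0.129 and 0.101 FPKM in Ctrl and 0.435, 0.387 and 0.289 FPKM in MIR21-KO. Ctrl replicate 1 stood within the range of the MIR21-KO libraries, so the groups overlapped. MYCN, the remaining MYC paralog, had 0 reads in all 6 libraries.

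MAX (ENSG00000125952) lies on chromosome 14 from 65006174 to 65102695. It was at 15.6, 16.7 and 15.3 FPKM in Ctrl and 18.7, 19.2 and 16.4 FPKM in MIR21-KO. MIR21-KO replicate 3 fell below the highest Ctrl library, and the difference (15.9 ± 0.727 against 18.1 ± 1.47) had an FDR of 0.140. MYC FPKM per MAX FPKM was 2.44 ± 0.186 in Ctrl and 2.17 ± 0.173 in MIR21-KO.

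Among the repressors, MXD4 (ENSG00000123933; chromosome 4 from 2247432 to 2262294), often expressed in resting and differentiated cells, had the largest log2 difference, except with GC and length trends removed, where MXD1 stood at 0.92 and MXD4 at 0.89. It was at 6.39, 6.43 and 6.57 FPKM in Ctrl and 13.8, 13.7 and 11.1 FPKM in MIR21-KO, with 488 to 1328 reads. Each MIR21-KO library exceeded each Ctrl library. The means were 6.46 ± 0.0939 and 12.8 ± 1.56 FPKM, a log2 difference of 0.97 ± 0.105 (SE, FDR 0.00108). This call held in 18 of 18 alternative settings (log2 difference 0.89 to 1.08, FDR 0.000134 to 0.00960).

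MNT (ENSG00000070444; chromosome 17 from 2384060 to 2401118), the broadly expressed MAX partner that opposes MYC in dividing cells, was at 4.59, 4.86 and 4.86 FPKM in Ctrl. In MIR21-KO it was at 6.82, 8.05 and 7.88 FPKM, without overlap. The difference was 0.65 ± 0.096 (log2, SE, FDR 0.00331), from 4.77 ± 0.155 to 7.58 ± 0.666 FPKM. The call was lost without any one Ctrl library (FDR 0.0168 to 0.0198) or without MIR21-KO replicate 2 (FDR 0.0229), and held in 12 of 18 settings in all. Among these 12 is the filter at a mean of at least 5 FPKM. MNT passed that filter only through its MIR21-KO level, so that setting adds no support. An antisense gene, AC006435.1, covers 12.2% of the MNT exon bases on the other strand. AC006435.1 was itself higher, at 1.72 to 2.36 FPKM in Ctrl and 2.68 to 3.58 in MIR21-KO. Its part in the MNT difference was not tested.

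MXD1 (ENSG00000059728; chromosome 2 from 69897688 to 69942945), which carries the 7mer for miR-21-5p and the 8mer for let-7 shown above, was a low transcript. It was at 1.01, 0.981 and 0.990 FPKM in Ctrl and 1.76, 1.84 and 1.94 FPKM in MIR21-KO, with 67 to 160 reads. The groups did not overlap, and the difference was 0.83 ± 0.142 (log2, SE, FDR 0.00586). It was lost without any one of the 6 libraries (FDR 0.0123 to 0.0327) while the log2 difference stayed at 0.79 to 0.86. Across all settings in which it was tested the call held in 8 of 17.

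MXI1 (ENSG00000119950; chromosome 10 from 110207605 to 110287365) had only a 6mer. It was at 1.84, 1.90 and 1.87 FPKM in Ctrl and 2.57, 3.16 and 2.74 FPKM in MIR21-KO. The groups did not overlap, but the difference of 0.56 ± 0.126 (log2, SE) had an FDR of 0.0157 and was not called. It passed in 3 of 17 settings, namely with protein-coding genes only (FDR 0.00650), with voom on recovered reads (FDR 0.00989) and with GC and length trends removed (FDR 0.00470).

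MXD3 (ENSG00000213347; chromosome 5 from 177301461 to 177312757), an MXD protein found in S phase and in proliferating progenitors, carries the 8mer for miR-21-5p. It was at 7.71, 8.50 and 8.44 FPKM in Ctrl and 11.1, 8.04 and 6.76 FPKM in MIR21-KO. One MIR21-KO library lay above all Ctrl libraries and another below them, and the difference was 0.04 ± 0.176 (log2, SE, FDR 0.882). Without MIR21-KO replicate 1 it was -0.15 and without MIR21-KO replicate 3 it was 0.20, neither past the threshold. MXD3 has 61.3% GC against a median of 48.7% in tested genes, and its MIR21-KO values ran in the order of the GC correlations given above. Those of MXD4 (57.6% GC) did too, while those of MNT (61.4% GC) did not. Deviations of the MIR21-KO libraries also correlated with gene length, at -0.332, -0.0295 and 0.269 for replicates 1 to 3. The part of GC content or length in these spreads was not tested further than by removing the trends. With GC and length trends removed the MXD3 difference was -0.07. On the other strand PRELID1 covers 22.5% of the MXD3 exon bases, at 123 to 138 FPKM in Ctrl and 68.5 to 97.7 in MIR21-KO. MXD3 also shares 926 exon bases (18.0%) with RAB24 on the same strand, and how such reads were counted is not stated. Of 1143 genes with over 99% of their exon bases shared on the same strand, 94.0% had 0 reads, against 32.7% of 741 genes shared only with the opposite strand.

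**Figure D2:**
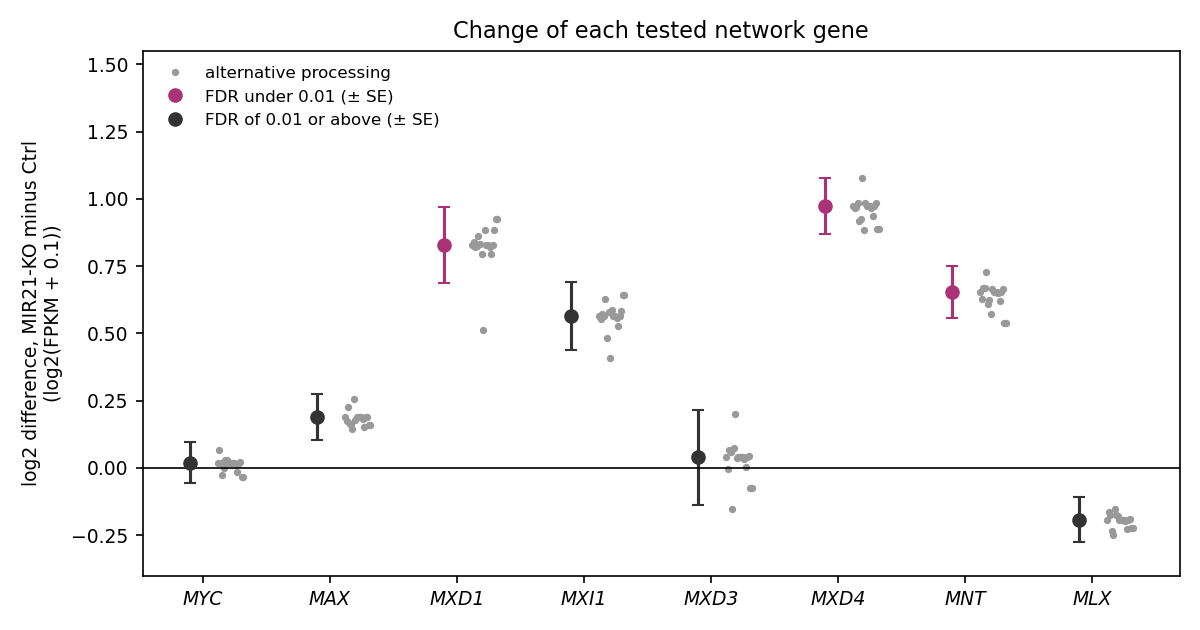
Log2 difference (MIR21-KO minus Ctrl, log2(FPKM + 0.1)) of the 8 tested network genes, as large points with SE (purple for FDR under 0.01) and as grey dots for the alternative settings. MXD4 stays between 0.89 and 1.08, and MYC and MXD3 have dots on both sides of 0.

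MLX (ENSG00000108788; chromosome 17 from 42567068 to 42573239) was the only tested network gene with a difference below 0 in the main fit. MYC and MXD3 were each below 0 in 4 of 18 alternative settings. MLX was at 15.1, 14.9 and 13.7 FPKM in Ctrl and 13.8, 12.02 and 12.4 FPKM in MIR21-KO. MIR21-KO replicate 1 lay just above the lowest Ctrl library, and the difference of -0.19 ± 0.084 (log2, SE) had an FDR of 0.130. Across 18 alternative settings the FDR of MLX was 0.0476 to 0.342, lowest with GC and length trends removed, and 0 were called. Its partner MLXIP was at 4.46 ± 0.355 and 6.29 ± 0.549 FPKM, a difference of 0.49 with an FDR of 0.0153, not called. MLXIPL had 6 to 22 reads per library and was not tested. PSMC3IP covers 18.1% of the MLX exon bases on the other strand. It was at 10.9 to 11.3 FPKM in Ctrl and 6.35 to 8.19 in MIR21-KO, and its part in the MLX values was not tested.

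MGA, a MAX partner with a second DNA-binding domain of the T-box type, was at 2.58 ± 0.432 FPKM in Ctrl and 2.08 ± 0.556 in MIR21-KO (FDR 0.301). In all, 0 of the 2 tested genes among MYCN, MGA, MLXIP and MLXIPL passed limma's test. At an unadjusted p under 0.05, and by voom, 1 of them (MLXIP) was higher (20.7% and 10.5% of all genes).

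In Ctrl cells the order of levels per length was MYC, MAX, MLX, MXD3, MXD4, MNT, MXI1, MXD1 and MYCL, and no neighbours in it overlapped in range. In MIR21-KO cells MXD4 came next after MAX, at 12.8 ± 1.56 FPKM, ahead of MLX and MXD3. The ranges of MXD4 and MLX overlapped there, as did those of MXD3 and MNT. MXD4 FPKM per MXD3 FPKM was 0.788 ± 0.0368 in Ctrl and 1.53 ± 0.246 in MIR21-KO.

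The FPKM of the 5 repressor genes (MXD1, MXI1, MXD3, MXD4 and MNT) were also summed per library, as a description without a test. The sums were 21.5, 22.7 and 22.7 in Ctrl and 36.0, 34.8 and 30.4 in MIR21-KO. MYC FPKM per summed repressor FPKM was 1.92, 1.70 and 1.59 in Ctrl and 1.12, 1.11 and 1.27 in MIR21-KO. Neither quantity overlapped between groups, with MYC itself within the Ctrl range. Of all tested genes 48.1% were likewise without overlap. The sum holds MXD4, MNT and MXD1, already described as higher, so it adds no separate result. MXD4 made up 28.97% ± 0.644 of the sum in Ctrl and 38.02% ± 1.51 in MIR21-KO. With MXD4 left out the sum was 15.9 ± 0.601 and 20.9 ± 1.46 FPKM. These are transcript levels, and no protein was measured here. In bulk RNA, fewer cells with a transcript and less of it per cell cannot be told apart.

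**Figure D3:**
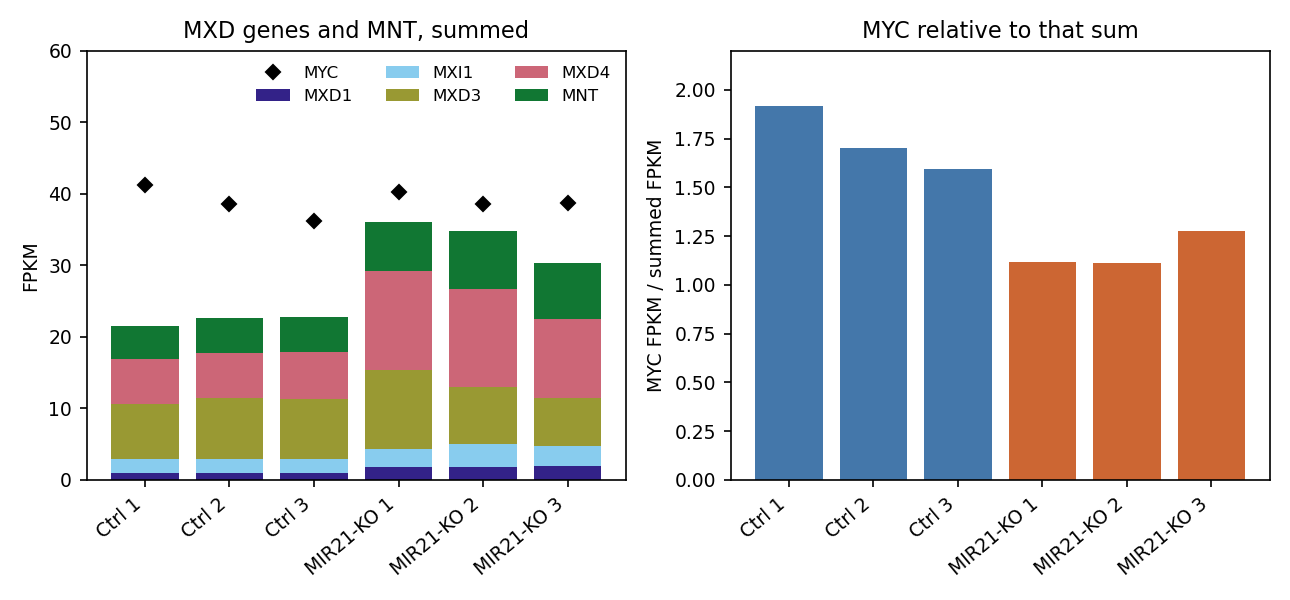
Left, FPKM of the 5 repressor genes stacked for each library, with MYC as black diamonds. Right, MYC FPKM divided by that sum. The sum is 21.5 to 22.7 in Ctrl and 30.4 to 36.0 in MIR21-KO, and the ratio 1.59 to 1.92 and 1.11 to 1.27.

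Genes that work with the network were taken from lists of textbook members. The lists were chosen with earlier results of these data known. Counts in this and the following lists are therefore descriptions and not independent support. Of 14 MYC cofactors, 0 passed as higher and 2 as lower (14.3% called, near the 16.0% of all genes), with a median log2 difference of -0.23. At an unadjusted p under 0.05, and by voom, 5 were lower and 0 higher (22.5% and 20.7% of all genes by unadjusted p, 11.4% and 10.5% by voom). RUVBL1, an ATPase of chromatin remodelers, went from 24.0 ± 0.646 to 16.1 ± 1.39 FPKM (log2 difference -0.58, FDR 0.00328). ACTL6A, an actin-like subunit of such complexes, went from 20.3 ± 0.378 to 15.0 ± 0.5003 FPKM (-0.43, FDR 0.00375). Leaving out one library gave 0 to 3 lower calls, and 0 without any one Ctrl library or MIR21-KO replicate 2. Of all 16006 genes, 368 to 400 were lower in those latter sets, against 1342 in the main fit. Of 11 subunits of the SIN3 and NCOR complexes that MXD proteins recruit, 0 passed limma's test, and the median was -0.21. At an unadjusted p under 0.05, 6 of these were lower and 1 higher, and voom on recovered reads called 0 lower and 1 higher (22.5% and 20.7% of all genes by unadjusted p, 11.4% and 10.5% by voom).

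Regulators of MYC stability comprised 17 tested genes, of which 1 passed as higher and 4 as lower (median -0.24). Of all genes, 7.66% passed as higher and 8.38% as lower. AURKA, a mitotic kinase that protects MYC proteins from degradation, fell from 62.3 ± 1.86 to 27.8 ± 1.62 FPKM (log2 difference -1.16, FDR 0.000157). SKP2, an F-box protein that ubiquitinates MYC, rose from 8.23 ± 0.608 to 15.6 ± 1.79 FPKM (0.91, FDR 0.00161). PPP2R5A, a phosphatase 2A subunit, and USP7, a deubiquitinase, fell by 0.58 and 0.48 on the log2 scale (FDR 0.00503 and 0.00323). FBXW7, the F-box protein that recognises phosphorylated MYC, was at 1.28 ± 0.111 and 1.65 ± 0.139 FPKM (FDR 0.134). Without any one Ctrl library or MIR21-KO replicate 2 the lower calls numbered 1 in place of 4. There, 368 to 400 of 16006 genes were lower, against 1342 in the main fit. The call for SKP2 was made in 3 of the 6 sets that left out a library, in which 388 to 1599 genes were higher.

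Among genes known to be induced by MYC, 23 of 45 tested (51.1%, against 8.38% of all genes) passed as lower and 0 as higher, with MYC itself not past the threshold. TERT is left out of this count, since only its Ctrl level took it past the minimum mean, and with it the count is 24 of 46. The share over all genes is larger among more abundant and among protein-coding genes. At a mean of at least 5 FPKM, which leaves TERT out, 25 of 40 were lower, against 1188 of 7551 genes. CDC25A and POLR1B reached that mean only through Ctrl, at 6.29 and 7.37 FPKM against 3.94 and 4.83 in MIR21-KO. Their part in that count is no support. With protein-coding genes only, 31 of 46, TERT included, were lower, against 1723 of 11719 genes. At an unadjusted p under 0.05, limma put 38 of the 46, TERT included, lower and 1 higher (22.5% and 20.7% of all genes). Voom, with TERT again among the 46 tested, called 32 lower and 0 higher (11.4% and 10.5% of all genes). Of the 45, 39 had differences below 0 (median -0.56, against -0.02 for all genes). NCL and NPM1, abundant nucleolar proteins, fell from 153 ± 1.90 to 109.8 ± 6.04 FPKM (FDR 0.00455) and from 419 ± 16.4 to 305 ± 16.2 FPKM (FDR 0.00876). BOP1 and RRS1, ribosome assembly factors, fell by 1.10 and 1.05 on the log2 scale (FDR 0.00153 and 0.00130). E2F2, a cell cycle factor, fell from 3.25 ± 0.453 to 1.498 ± 0.0917 FPKM (FDR 0.00268).

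TERT, the telomerase catalytic subunit, had 56, 57 and 53 reads in Ctrl and 3, 2 and 0 in MIR21-KO, a ratio of Ctrl to MIR21-KO of 34.7 (exact 95% interval 14.6 to 108, counting error only). ODC1, the first enzyme of polyamine synthesis, went the other way without passing, at 51.8 ± 2.90 and 61.0 ± 4.42 FPKM (FDR 0.0800). The number of lower calls among the 46 induced targets, TERT included, was 6 to 8 without any one Ctrl library or MIR21-KO replicate 2. Without MIR21-KO replicates 1 and 3 it was 28 and 30. Of all 16006 genes, 368 to 400 were lower in the former sets, and 1229 and 1801 in the latter. MKI67, a proliferation marker, was at 27.9 ± 2.84 and 17.02 ± 3.15 FPKM (FDR 0.0110), and its part in these differences was not tested. EIF4A1 and PPAN share 48.6% and 59.8% of their exon bases with another gene of the same strand, so their levels of 1.18 and 1.88 FPKM are uncertain.

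Genes known to be repressed by MYC gave 3 higher and 0 lower calls among 9 tested (median 0.29), against 7.66% and 8.38% of all genes. At an unadjusted p under 0.05 limma put 5 higher and 0 lower (20.7% and 22.5% of all genes). Voom called 4 higher and 0 lower (10.5% and 11.4% of all genes). TGFBI, a matrix protein, rose from 208 ± 5.50 to 876 ± 61.6 FPKM (log2 difference 2.07, FDR 4.88e-05). NDRG1, a stress and differentiation gene, rose from 3.79 ± 0.310 to 11.97 ± 0.396 FPKM (1.64, FDR 0.000105), and GADD45A, a growth arrest gene, by 0.74 on the log2 scale (FDR 0.00399). CDKN1A, the p21 cell cycle inhibitor, was at 90.2 ± 2.77 and 109.3 ± 11.5 FPKM (FDR 0.0736). Leaving out one library gave 2 to 4 higher calls, with 2 when a Ctrl library or MIR21-KO replicate 2 was left out. Those last sets called 388 to 522 of 16006 genes higher, against 1226 in the main fit.

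**Figure D4:**
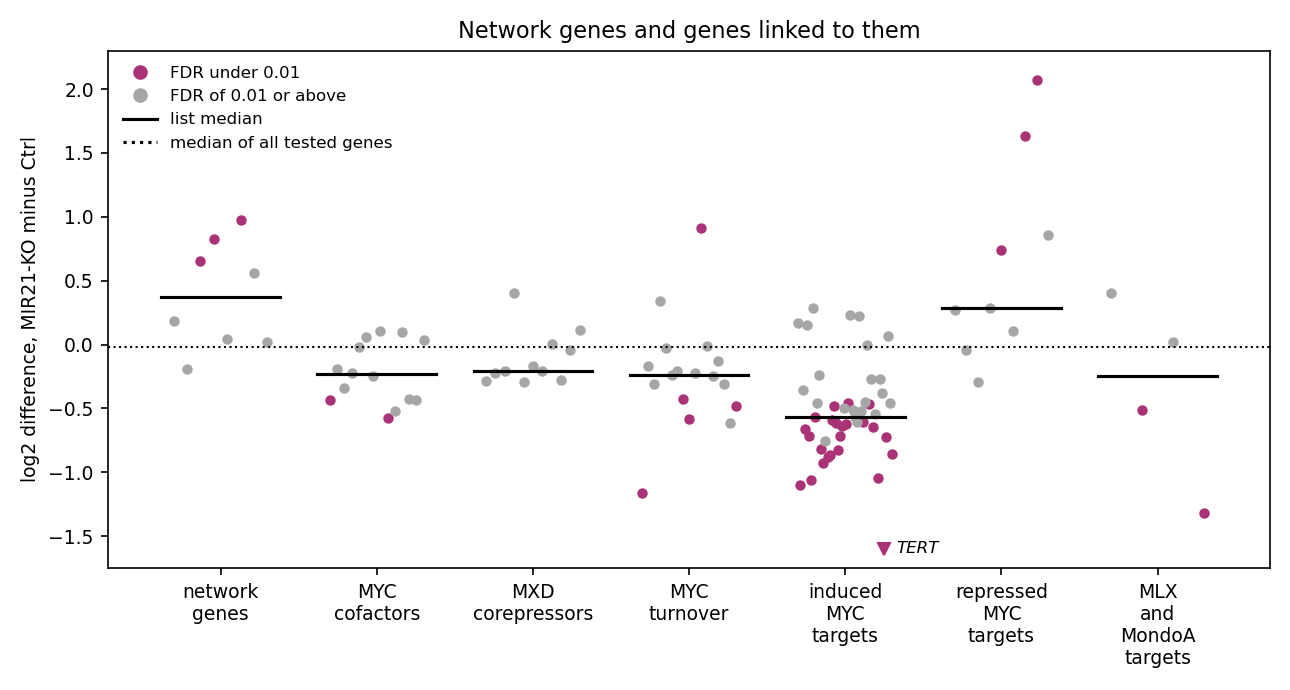
Log2 difference (MIR21-KO minus Ctrl) of each tested gene, grouped by list, in purple where FDR is under 0.01. Black bars are list medians, the dotted line is the median of all tested genes, and the triangle marks TERT, which lies below the axis. Induced MYC targets have a median of -0.57 with TERT and the network genes 0.38.

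Among genes driven by MLX with MLXIP or MLXIPL, 4 of 8 were tested, with 2 lower and 0 higher calls (8.38% and 7.66% of all genes). At an unadjusted p under 0.05, limma put 2 lower and 1 higher (22.5% and 20.7% of all genes). Voom called 2 lower and 0 higher (11.4% and 10.5% of all genes). PFKFB3, a regulator of glycolysis, fell from 97.2 ± 5.40 to 38.9 ± 2.91 FPKM (log2 difference -1.32, FDR 0.000179). FASN, fatty acid synthase, fell from 44.9 ± 1.69 to 31.6 ± 1.97 FPKM (-0.51, FDR 0.00364). Only 1 of these calls was made without any one Ctrl library or MIR21-KO replicate 2, where 368 to 400 of 16006 genes were lower. TXNIP, the best known MondoA target, had 3, 0 and 0 reads in Ctrl and 16, 17 and 20 in MIR21-KO, too few for the test. Its ratio of MIR21-KO to Ctrl was 16.9 (exact 95% interval 5.48 to 84.6, counting error only). ARRDC4, its relative, had 3, 2 and 5 reads in Ctrl and 11, 5 and 11 in MIR21-KO.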

How the data were processed

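PolyA-selected, strand-specific RNA-seq libraries of A549 cells (3 Ctrl, 3 MIR21-KO, grouped by sample title) were analysed. The authors deposited FPKM per gene with gene lengths; their own fold changes, p-values and FDRs were not used. The submitters' processing notes name cutadapt 1.14, HISAT2 2.1.0, SAMtools 1.5, featureCounts 1.5.3, edgeR 3.18.1 and hg38, without settings. FPKM times length came out as whole reads for 100% of values (tolerance 0.01). Intervals and read numbers cover counting error only.

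Limma 3.58.1 (R 4.3.3, eBayes with trend and robust fitting, no covariate) was applied to log2(FPKM + 0.1) of genes averaging 0.5 FPKM or more, with calls at a Benjamini-Hochberg FDR under 0.01. Differences on this scale understate changes of low genes. The fit was tried on simulated reads with scatter set alike for all genes and no trend on GC content or length. That trial does not cover the drift between the MIR21-KO libraries. GENCODE 29 (GRCh38) matched 99.42% of gene identifiers; miRNA and promoter sequences came from RefSeq. Named were all network genes, the 4 called genes of each list with the largest differences, and a few well known partners and targets whatever their values. Network genes and lists were chosen with earlier results of these data known. Alternatives were a replicate block, each library left out, other filters, pseudocounts, scalings and thresholds, voom, and, chosen after seeing the data, removal of lowess trends on GC content and length.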

Additional observations from a re-analysis of the deposited data

How the results depend on the processing

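The direction of MXD4, MXD1, MXI1, MNT and MAX (higher) and of MLX (lower) was kept in each setting tried. MYC was at -0.0163 (log2) with scaling by total reads and at -0.0352 with GC and length trends removed, with or without the replicate block, and ranged from -0.0269 to 0.0680 when one library was left out. MXD3 was at -0.0731 with those trends removed, again with or without the block, and ranged from -0.153 to 0.199 when one library was left out, with -0.00398 without Ctrl replicate 1. Of 142 values of network genes under alternatives, 116 kept their direction and side of the threshold, 15 lost and 3 gained a call, and 8 changed sign. Only MXD4, MNT and MXD1 had a call to lose. They kept it in 18 of 18, 12 of 18 and 8 of 17 settings. With the replicate block, 651 genes were called (379 higher, 272 lower) and 1 network gene, MXD4, while MXD1 and MNT were not (FDR 0.0410 and 0.0203). The block left 4 lower calls among the induced MYC targets, 2 higher among the repressed ones, 1 lower and 0 higher (SKP2 lost) among regulators of MYC stability, 0 lower among cofactors and 1 lower among MLX targets. Whether same-numbered libraries were handled together is not stated. Their deviations correlated at -0.171, -0.018 and -0.017, a description over genes that cannot settle it. The share of higher calls was 47.7%, and 58.2% with the block. With trends removed 3960 genes were called (2135 lower), and with the block added 1 network gene was. An FDR under 0.05 gave 5114 genes (2428 higher, 2686 lower), and a mean of at least 5 FPKM 765 higher. With any single library omitted, calls ranged from 768 to 3400, of which 388 to 1599 were higher and 368 to 1801 lower, with 1 or 2 network genes called higher. The cause of these shifts was not tested. Depth limits MYCL, TXNIP and ARRDC4, at no more than 30 reads per library.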
